A study of Mus musculus with 4 samples.

Results

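The Hox genes of the mouse lie in 4 clusters, Hoxa, Hoxb, Hoxc and Hoxd, and were described here in chemically transformed fibroblasts with and without diethyl maleate (DEM), a compound that depletes glutathione. Members were chosen by name: every non-control probe whose gene name was Hoxa, Hoxb, Hoxc or Hoxd followed by a number. Described here are 38 genes with 50 probes, among 29108 gene names on the array when NONCODE (noncoding) transcripts are left out. The Hoxa cluster had 10 members, Hoxb 10, Hoxc 9 and Hoxd 9. A total of 12 genes had 2 probes, and the brightest probe stood for a gene unless the other is named.

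The cells were C3H10T1/2, a mouse embryo fibroblast line that grows as a contact-inhibited monolayer and is used to score chemical transformation. Both groups had received 3-methylcholanthrene (3MC, also written MCA, 2.5 µg/ml) for 2 days, then TPA, a phorbol ester tumour promoter, at 100 ng/ml over 2 weeks, followed by normal medium for 4 weeks. One group (2 arrays) had no DEM and the other (2 arrays) was exposed to 0.25 mM DEM. No untransformed cells were analysed here, and the sources used here do not state how long DEM was applied. Whether replicate arrays stand for separate cultures is not in the labels, so p-values speak only of how these 4 samples scatter, and that scatter may be technical.

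Hox genes encode transcription factors that bind DNA through a homeodomain and set position along the body axis. Genes of the same number in different clusters are paralogs; low numbers lie at the 3' end of a cluster and act in anterior regions, high numbers at the 5' end and act in posterior and distal regions. Fibroblasts in culture keep a Hox pattern related to the place in the body they came from. Hox proteins bind DNA with TALE homeodomain cofactors of the Pbx, Meis and Pknox families, Polycomb complexes keep clusters silent, trithorax proteins keep them active, and retinoic acid activates 3' members.

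Probes are 60 bases long, and paralogs are most alike in the homeobox, so probes that read conserved stretches come first. Only short motifs of the hexapeptide, the first homeodomain helix and the homeodomain recognition helix were searched for. Of the 50 probes, 6 held codons of such a motif (probes of Hoxa4, Hoxa6, Hoxa9, Hoxb3, Hoxc11 and Hoxd3), and 2 are shown. Probes in other parts of the homeobox were not counted. Sequences are from the array files, 5' to 3'. In the Hoxa6 probe the capitals mark codons of the hexapeptide, the short motif through which Hox proteins contact Pbx, and in the second Hoxa4 probe codons of the first homeodomain helix.
Hoxa6: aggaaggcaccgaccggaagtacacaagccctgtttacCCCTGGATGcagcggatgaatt
Hoxa4, second probe: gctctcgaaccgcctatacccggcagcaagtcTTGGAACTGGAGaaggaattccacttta
The longest run shared by probes of different members was 22 bases (Hoxa9 and Hoxb3), and the next was 14 (Hoxa9 and Hoxd10). Because of the shared 22 bases, the signals of the Hoxa9 and Hoxb3 probes are uncertain as to paralog, and the part of cross-hybridisation was not tested. Probes were compared with each other and not with transcripts of other members. Cross-hybridisation was thus not tested for any probe, the second Hoxa4 probe included.

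Levels are log2 of the processed signal over the 75th percentile of the non-control spots of the same array. That percentile was 701 and 747 signal units without DEM and 450 and 412 with DEM, and 51.7% and 52.1% of spots were well above background on the untreated arrays against 48.7% and 47.3% on the DEM arrays. Levels of all genes correlated at 0.988 within the untreated pair, 0.983 within the DEM pair and 0.937 to 0.947 between groups. Fibroblast markers were present: 10 of 11 were well above background on all 4 arrays. Their summed linear level (signal over the 75th percentile) was 1572 and 1629 without DEM and 870 and 1265 with DEM, and 6 of 11 were lower with DEM (Col3a1, Pdgfrb, Lum, Pdgfra, Dcn and Col1a2). Whether this difference has a part in the Hox values was not tested, and in bulk RNA fewer cells of a type and less RNA per cell cannot be told apart. Of other cell types, the pluripotency factors Pou5f1, Nanog and Sox2, the muscle factors Myod1, Myog and Myf5, the leukocyte markers Adgre1 and Ptprc and the endothelial markers Cdh5 and Kdr were well above background on no array. Other markers were well above background on all 4 arrays: 2 of 6 epithelial, 2 of 5 macrophage and 1 of 5 skeletal muscle. So were 2 of 3 chondrocyte, 1 of 4 osteoblast and 3 of 4 adipocyte markers. Without DEM, the muscle gene Acta1 was at 2.52 and 2.76 and the cartilage gene Col2a1 at 2.69 and 2.92. Among the other marker lists, 0 of 3 epithelial, 1 of 1 endothelial, 1 of 2 macrophage, 1 of 1 skeletal muscle, 1 of 2 chondrocyte, 2 of 3 osteoblast and 1 of 3 adipocyte markers tested were lower with DEM and 0 were higher. Of all genes and transcripts tested, 11.8% were lower and 15.5% higher at a limma adjusted p under 0.05. Lum, the endothelial gene Tek and both osteoblast genes (Alpl and Bglap) entered the test through the untreated arrays alone. All 4 arrays were on 1 slide with 1 scan time; the groups lay in different array columns of the slide, so slide position and group cannot be told apart.

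The detected Hox genes came mostly from the Hoxa cluster. Of 38 members, 11 passed the mark for a level well above background on 2 or more arrays: 8 of 10 in Hoxa (Hoxa2 to Hoxa7, Hoxa9 and Hoxa10), 2 of 10 in Hoxb (Hoxb3 and Hoxb9), 1 of 9 in Hoxc (Hoxc4) and 0 of 9 in Hoxd. Across the array, 58.1% of gene names, NONCODE transcripts left out, had such a probe. The detected Hoxa members are neighbours in the cluster, and the 5' members Hoxa11 and Hoxa13, which act in distal limb and urogenital development, were well above background on no array. By position in the clusters, 5 of 11 members of paralog groups 1 to 4, 3 of 11 of groups 5 to 8 and 3 of 16 of groups 9 to 13 were detected. In 8 of 13 paralog groups some member was detected, and in 3 of them (groups 3, 4 and 9) members of more than 1 cluster. Hoxb3 and Hoxc4, on which groups 3 and 4 rest, were detected at the brighter probe alone. The other probe of each was well above background on no array. The probes of Hoxb3 and Hoxa9 share 22 bases and are uncertain as to paralog, which bears on groups 3 and 9.

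**Figure D1:**
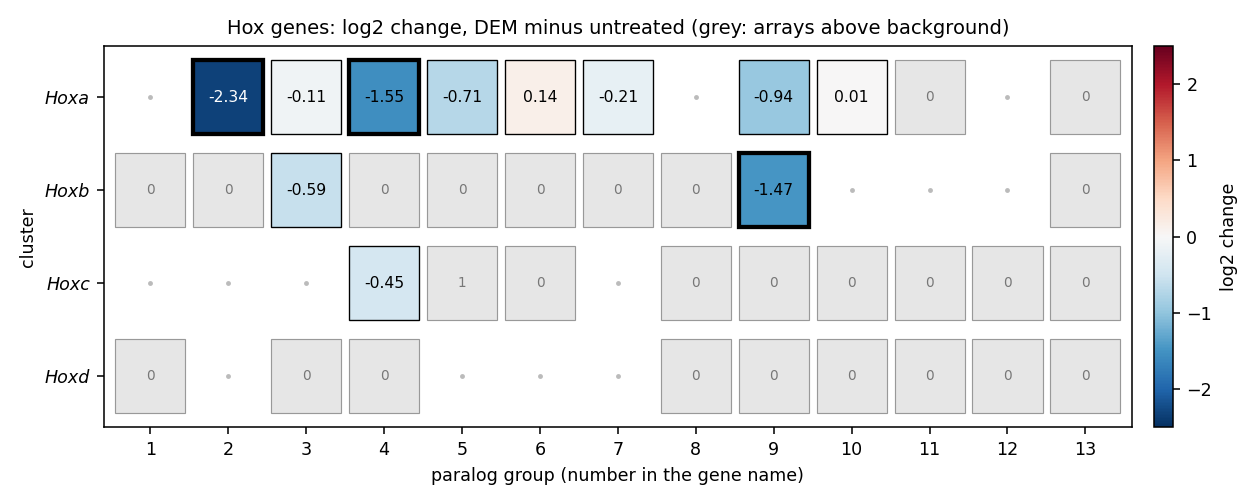
Each square is a Hox gene, placed by cluster (rows) and paralog group (columns), and a dot marks a position with no gene described. Coloured squares carry the log2 change of the 11 genes tested, DEM minus untreated, with a thick frame for the 3 past an adjusted p of 0.05; grey squares carry the number of arrays on which the gene was well above background. The coloured squares fill most of the Hoxa row and none of the Hoxd row.

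The other 27 members gave no usable level. A total of 26 were well above background on no array, and 19 of these sat at the surrogate value that the scanner software assigns to spots with no measurable signal on all 4 arrays. Hoxc5 was well above background on the second untreated array only, with levels of -6.99 and -4.39 without DEM and -4.57 and -5.04 with DEM. Some undetected members were off the surrogate value without passing the mark. Hoxb6 had levels of -5.81 and -6.68 without DEM and -5.26 and -4.59 with DEM. Hoxd3 had -4.95 and -6.11 untreated and -6.54 and -6.42 with DEM. Their arrays disagree within a group, and no direction is given for undetected members. The levels of the 26 ranged from -7.14 to -4.95 on the untreated arrays (median -7.03) and from -6.63 to -4.59 on the DEM arrays (median -6.42), and the higher DEM median goes with the lower 75th percentile by which those arrays were divided.

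With DEM, Hox genes were lower or did not pass the test. Of the 11 members tested, 3 fell (Hoxa2, Hoxa4 and Hoxb9), 0 rose and 8 did not pass at an adjusted p of 0.05 (limma, Benjamini-Hochberg over 24658 genes and transcripts); 4 of the 11 passed at an unadjusted p of 0.05, as did 41.2% of everything tested. Across everything tested, NONCODE transcripts included, 11.8% were lower and 15.5% higher. The log2 change was below 0 in 9 of the 11 and in 40.5% of all genes tested, and the median was -0.59 against 0.16. Both DEM arrays lay below both untreated arrays in 7 of the 11, against 26.0% of all genes tested. The groups overlapped in Hoxa3, Hoxa6, Hoxa7 and Hoxa10. Hoxa9 and Hoxb9 entered the test through the untreated arrays alone. Among the 9 members well above background on all 4 arrays, 2 fell and 0 rose (10.5% of all such genes fell), with a median of -0.45 against 0.20. The count of members that fell was 1 when arrays were scaled to 7 spike-in probes and 1 without the second untreated array.

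**Figure D2:**
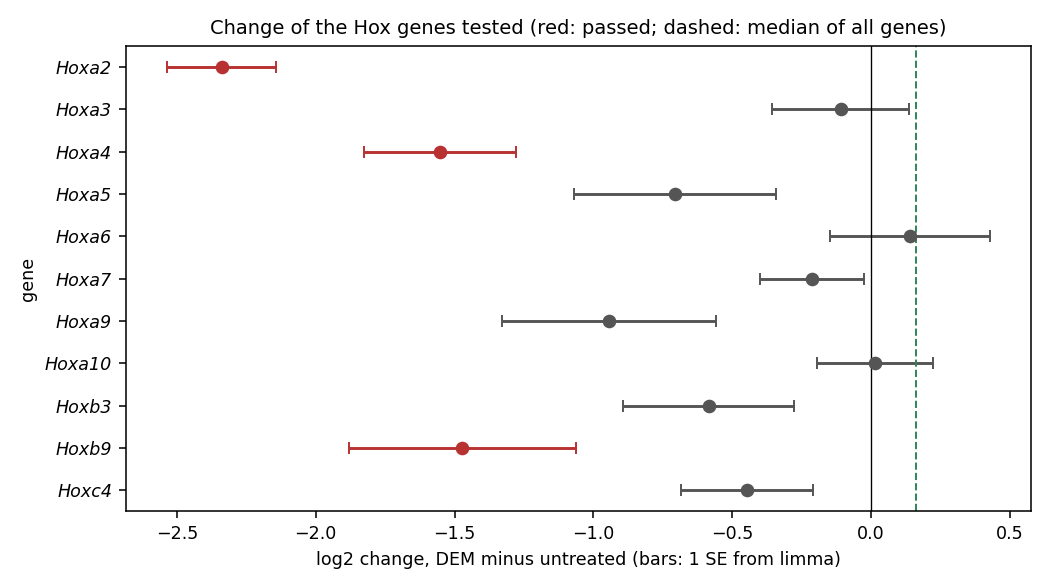
The log2 change with DEM (x axis, DEM minus untreated) is shown for each Hox gene tested, as a point with a bar of 1 SE from limma on 2 arrays per group; red marks an adjusted p under 0.05 and the dashed line is the median of all genes, 0.16. Hoxa2 lies farthest to the left at -2.34, and Hoxa3, Hoxa6, Hoxa7 and Hoxa10 lie within 0.25 of 0.

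Among the 3' Hoxa genes, Hoxa2 showed the largest change of the 11. Hoxa2 patterns the hindbrain and the second branchial arch. Its level was 0.55 and 0.51 without DEM and -1.76 and -1.87 with DEM, so that replicates nearly coincided and the groups lay far apart. The processed signals behind these levels were 1024 and 1061 untreated and 133 and 113 with DEM. Hoxa2 fell by 2.34 ± 0.20 on the log2 scale (SE, n = 2 and 2), which is 5.06-fold lower (limma adjusted p = 0.00157). It passed under all 17 alternative settings tried, with log2 changes of -2.496 to -1.889.

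Hoxa4, which acts in cervical vertebrae and in the lung, had the next largest fall among the members well above background on all 4 arrays. Its level was -0.04 and 0.53 without DEM and -1.47 and -1.14 with DEM; the untreated replicates were farther apart than the DEM replicates, with no overlap. Hoxa4 fell by 1.55 ± 0.27 (2.93-fold lower, limma adjusted p = 0.0116). Its call was lost without the second untreated array (adjusted p = 0.0972, change -1.26) and with spike-in scaling (0.249, change -1.708).

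Hoxa5, which acts in the lung and the cervicothoracic skeleton, did not pass. Its level was 0.03 and 0.26 without DEM and -1.08 and -0.03 with DEM. The first DEM array was low, while the second lay just below the untreated pair. The change was -0.71 ± 0.36 (limma adjusted p = 0.198), and without the second DEM array it was -1.23 and passed (0.0072).

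The central and 5' detected Hoxa genes showed small differences, apart from Hoxa9. Hoxa7, a thoracic patterning gene, had levels of 4.98 and 5.27 untreated and 4.77 and 5.06 with DEM. The groups overlapped, and the change was -0.21 ± 0.19 (limma adjusted p = 0.431). Hoxa6, also a thoracic gene, had levels of -3.59 and -3.32 untreated and -3.22 and -3.42 with DEM. Its DEM values lay across the higher untreated value, and the change was 0.14 ± 0.29 (0.743), with the sign turned under 2 other scalings. Hoxa10, which acts in the uterus, the lumbar spine and the proximal hind limb, had levels of -0.90 and -1.11 untreated and -0.99 on both DEM arrays. The DEM values fell between the untreated ones, and the change was 0.01 ± 0.21 (0.966), with a sign that turned under 4 other scalings.

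Hoxa9, best known for its part in blood progenitors and leukaemia, was close to background. Its level was -4.45 and -4.54 without DEM and -5.21 and -5.67 with DEM, where it was not well above background. The groups did not overlap, the change was -0.94 ± 0.38 (limma adjusted p = 0.120), and no lower bound on the fold above 1 could be given. The sign turned with normexp background correction, where the change was 0.33 and passed (0.0411); without the intensity trend the change of -0.94 also passed (0.0467).

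**Figure D3:**
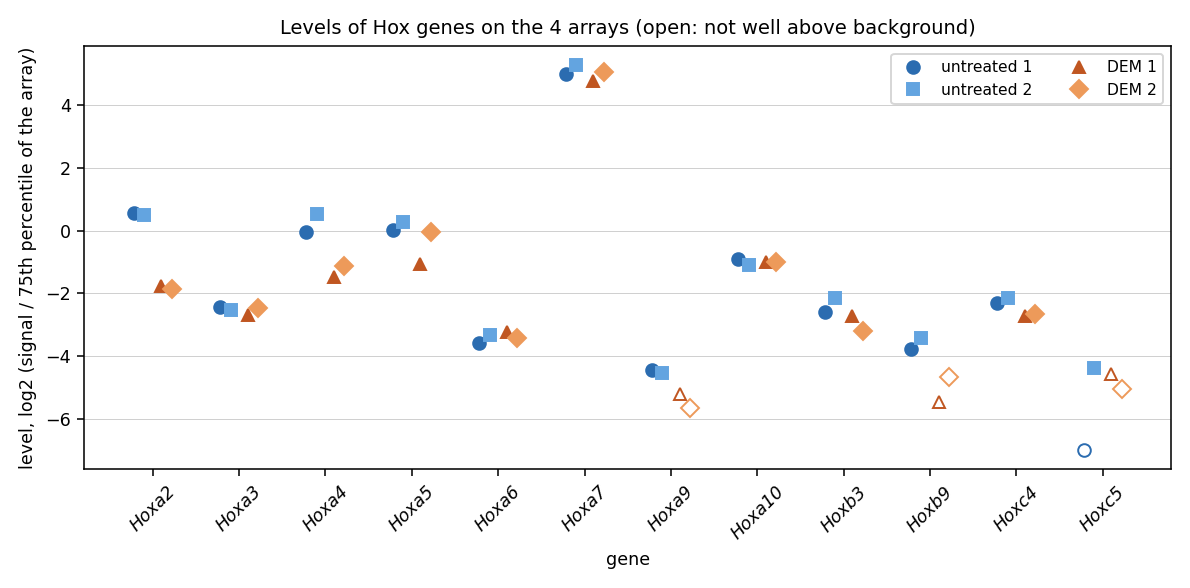
Levels (y axis, log2 of signal over the 75th percentile of the array) of the 11 tested Hox genes and Hoxc5 are plotted for each of the 4 arrays, with blue for untreated and orange for DEM, and open symbols where the spot was not well above background. The DEM symbols of Hoxa2, Hoxa4 and Hoxb9 lie below the blue ones, and those of Hoxa3, Hoxa6, Hoxa7 and Hoxa10 lie among them; levels of different genes come from different probes and have no order.

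Outside Hoxa, Hoxb9 fell and Hoxb3 and Hoxc4 did not pass. Hoxb9, a thoracic patterning gene, had levels of -3.77 and -3.42 without DEM and -5.47 and -4.66 with DEM, which were not well above background. The groups did not overlap and Hoxb9 was at least 1.54-fold lower with DEM (fitted change -1.47 ± 0.41, limma adjusted p = 0.0438). The bound divides the untreated mean by a floor, which on a DEM array is the dimmest signal still marked as well above background, or the probe's own signal where that is higher. The Hoxb9 call was lost in 8 of 17 alternative settings, among them normexp background correction (-0.07, adjusted p = 0.705), the mean of its probes (0.0653) and the absence of either untreated array (0.153 and 0.251) or of the first DEM array (0.0608).

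Hoxb3, which acts in the hindbrain and the pharyngeal arches, had levels of -2.59 and -2.14 untreated and -2.71 and -3.19 with DEM. Hoxc4, a thoracic and oesophageal patterning gene, had levels of -2.30 and -2.16 untreated and -2.71 and -2.65 with DEM. In both, the DEM arrays were the lower ones with no overlap, and the changes of -0.59 ± 0.31 (limma adjusted p = 0.206) and -0.45 ± 0.24 (0.212) did not pass.

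Paralogs could be set side by side in 3 groups, each by its own change. In paralog group 3, Hoxa3 changed by -0.11 at the probe used and Hoxb3 by -0.59, and neither passed. The second Hoxa3 probe changed by -1.71, so the order within this group depended on the Hoxa3 probe. In group 4, Hoxa4 fell by 1.55 and Hoxc4, at -0.45, did not pass. In group 9, Hoxa9 at -0.94 did not pass and Hoxb9 passed at a fitted -1.47. The probes of Hoxb3 and Hoxa9 share 22 bases and are uncertain as to paralog. The differences between paralogs were not tested.

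Hoxa3, which acts in the thymus, parathyroid and throat cartilages, gave different answers at its probes. The probe used was the brighter in the mean over all 4 arrays, though dimmer than the second on both untreated arrays. The choice thus rested on the DEM arrays. At the probe used, levels were -2.44 and -2.52 untreated and -2.70 and -2.48 with DEM. The groups overlapped, and the change was -0.11 ± 0.25 (limma adjusted p = 0.768). The second Hoxa3 probe had levels of -2.03 and -1.84 untreated and -3.66 and -3.63 with DEM, with no overlap and a gap many times the difference between replicates. At that probe Hoxa3 fell by 1.71 ± 0.26 (adjusted p = 0.00748 over all 31771 probes). Hoxa3 passed in 3 of 18 alternative settings: at this second probe, with the mean of its probes (-0.91, 0.0375) and with normexp background correction (-0.60, 0.0176), under which the second probe became the brighter and stood for the gene. The Hoxa3 call thus depended on the probe, and which transcripts each probe reads was not tested.

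In the other genes with a second kept probe, Hoxa4 fell at both probes, Hoxa10 was near 0 at both, and Hoxb9 passed at the brighter probe alone. The second Hoxa4 probe, shown above, had levels of -2.96 and -2.64 untreated and -4.63 and -4.66 with DEM, the latter not well above background, and was at least 2.68-fold lower (adjusted p = 0.00968 over all probes). The second Hoxa10 probe changed by -0.03 (0.941). The second Hoxb9 probe had levels of -4.76 and -4.13 untreated and -5.52 and -5.38 with DEM, a change of -1.01 that did not pass (0.117). The second probes of Hoxb3 and Hoxc4 were well above background on no array. With every kept probe tested on its own, 5 of 15 Hox probes, from 4 genes, fell, against 12.2% of all kept probes.

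**Figure D4:**
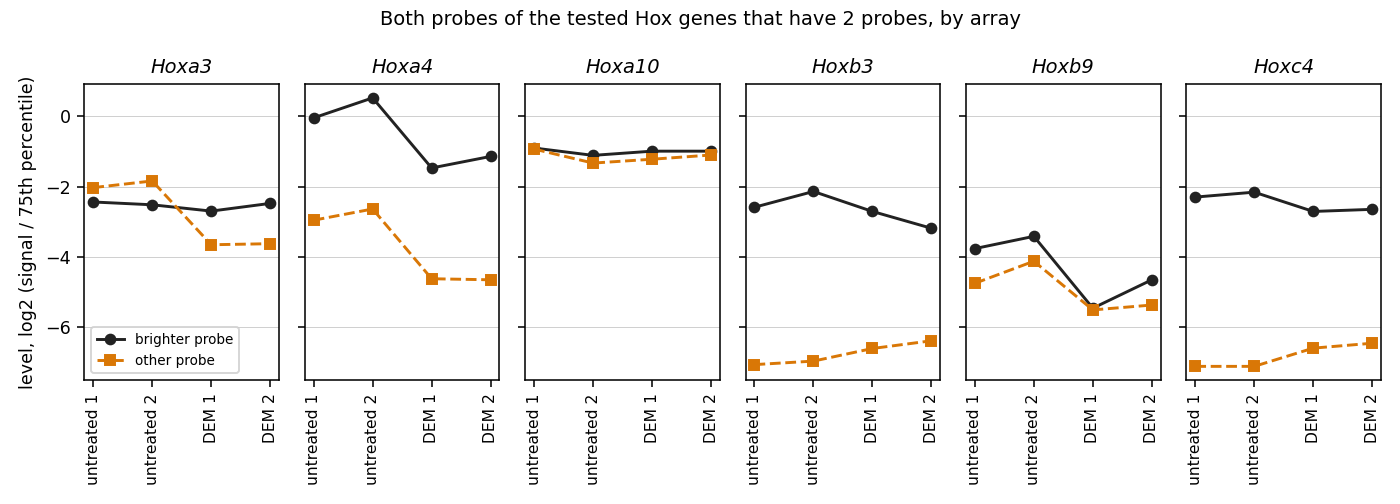
Each panel shows the level (y axis, log2 of signal over the 75th percentile) of both probes of a Hox gene on the 4 arrays, in black for the probe used and in orange for the other. The orange line of Hoxa3 drops from -1.84 to -3.66 between the groups while the black line stays between -2.70 and -2.44; both lines drop in Hoxa4 and both stay level in Hoxa10.

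Transcripts inside the clusters and the genes next to them were taken from the order of genes in RefSeq (GRCm38.p6). Of 31 other genes inside the clusters, 7 were on the array and 2 were tested. Hoxaas3, a long non-coding RNA of the Hoxa cluster, had levels of -0.69 and -0.68 untreated and -0.77 and -0.83 with DEM. Both DEM arrays were slightly lower, and the change was -0.12 ± 0.20 (limma adjusted p = 0.687). Gm11539, a pseudogene in Hoxb whose signal is uncertain because a parent gene can share its sequence, changed by 0.37 ± 0.14 (0.092). Hoxa11os, a non-coding RNA beside Hoxa11, was well above background on no array.

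Of the 24 protein-coding genes nearest the clusters, 22 were tested, 1 rose and 2 fell. The shares over everything tested were 15.5% rising and 11.8% falling. The 5 tested beside Hoxa (Cbx3, Snx10, Skap2, Hibadh and Tax1bp1) changed by -0.20 to 0.52 and none passed. Beside Hoxd, Lnpk, which encodes an endoplasmic reticulum junction protein, rose by 1.50 ± 0.22 (2.84-fold, limma adjusted p = 0.00721), and Atp5g3, Evx2, Mtx2 and Hnrnpa3 did not pass. Beside Hoxb, Ttll6, a tubulin glutamylase, was at least 1.93-fold lower (0.00637) and entered the test through the untreated arrays alone, and Atp5g1, Calcoco2, Skap1, Snx11 and Cbx1 did not pass. Beside Hoxc, Hnrnpa1, an RNA-binding splicing factor, was 2.22-fold lower (0.0095), and Atf7, Atp5g2, Calcoco1, Smug1 and Cbx5 did not pass. Evx1, the homeobox gene at the 5' end of Hoxa, was well above background on fewer than 2 arrays.

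The promoter of Hoxa2, the member with the largest change, is shown from RefSeq (GRCm38.p6, chr6:52164782-52165081, minus strand), 250 bases before to 50 after the start. Capitals mark the match to TGATNNAT, a short form of the site bound by Pbx and Hox proteins together.
Hoxa2 promoter: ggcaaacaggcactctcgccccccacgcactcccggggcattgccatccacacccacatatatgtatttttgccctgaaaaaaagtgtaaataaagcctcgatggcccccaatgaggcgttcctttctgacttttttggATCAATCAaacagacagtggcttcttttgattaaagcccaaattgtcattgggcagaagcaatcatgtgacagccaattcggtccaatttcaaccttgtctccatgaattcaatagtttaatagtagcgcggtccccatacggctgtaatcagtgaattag
The match is on the minus strand of the printed sequence, at position 140 from its 5' end. The promoter table held 8 of the 11 detected members and 14 of the other 27; Hoxa4, Hoxb3 and Hoxb9 were not matched. Searched on both strands, TGATNNAT was in 1 of 9 promoters of detected members, 3 of 15 of the other members and 8.85% of all 32851 promoters. TGACNNNGC, the antioxidant response element through which Nrf2 acts, was in 1 of 9, 1 of 15 and 12.4%, and AGGTCA, a nuclear receptor half-site, in 2 of 9, 5 of 15 and 16.3%. The median GC content was 57.3% in promoters of detected members, 58.0% in those of other members and 52.7% in all promoters. A match in such a window is a description of its letters.

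Among genes that act with or on Hox clusters, some rose and some fell; across everything tested, 15.5% rose and 11.8% fell, and the counts by list stand against these shares. The TALE list held the Pbx, Meis and Pknox cofactors and also Tgif repressors. Its members are called TALE cofactors where settings are compared. Of its 10 genes tested, 1 rose and 4 fell (median -0.27), with Tgif2 among the 4. Pknox1, a Pbx partner, rose 2.93-fold from levels of 0.34 and 0.43 to 2.12 and 1.76 (limma adjusted p = 0.00518). Tgif2, a repressor of the same homeodomain class, was 5.09-fold lower (0.00156), and Meis2 1.63-fold lower (0.0321). Pbx and Meis proteins are the partners with which Hox proteins bind DNA.

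Of 29 Polycomb genes tested, 5 rose, 3 fell and 21 did not pass (median 0.01), near those shares. Phc2, a subunit of Polycomb complex PRC1, rose 2.58-fold (limma adjusted p = 0.00368). Phf1 and Aebp2, accessory subunits of PRC2, rose 2.40-fold (0.0065) and 3.24-fold (0.00807). A further list held trithorax genes, H3K27 demethylases and other chromatin factors, Mllt3 and Dot1l among them. Its members are called trithorax genes where settings are compared. Of its 15 genes tested, 2 rose and 1 fell (median 0.19). Mllt3, an elongation factor found in MLL fusions, was 3.09-fold lower (0.00496), and Dot1l, the H3K79 methyltransferase, rose 1.96-fold (0.0209). Wdr5, a core subunit of MLL complexes, rose 1.66-fold (0.0363).

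Of 12 Cdx and retinoic acid genes tested, 1 rose and 3 fell (median 0.00). Dhrs3, a retinaldehyde reductase induced by retinoic acid, had levels of 2.38 and 2.34 untreated and -0.90 and -2.36 with DEM, and was 15.9-fold lower (limma adjusted p = 0.00361). Both DEM arrays were far below the untreated ones and also differed from each other. Aldh1a1, which makes retinoic acid, was 4.88-fold lower (0.0167), and Cyp26b1, which degrades it, was 2.47-fold lower (0.0187). Stra6, the retinol uptake receptor, rose 3.16-fold (0.0346).

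Of 36 homeobox genes outside the clusters that were tested, 14 fell, 3 rose and 19 did not pass, with a median log2 change of -0.63. Dlx4 and Otx1, among those that fell, entered the test through the untreated arrays alone, and Nkx3-2 through the DEM arrays alone. Nkx3-2, a cartilage factor not well above background on the untreated arrays, was at least 5.20-fold higher with DEM (limma adjusted p = 0.00182). Prrx2, a mesenchymal factor, fell by 1.63 ± 0.18 on the log2 scale (0.00315), Gsc, a craniofacial factor, 5.86-fold lower (0.00361), and Dlx1, a branchial arch factor, 3.78-fold lower (0.00381). The difference between these genes and the Hox genes was not tested.

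**Figure D5:**
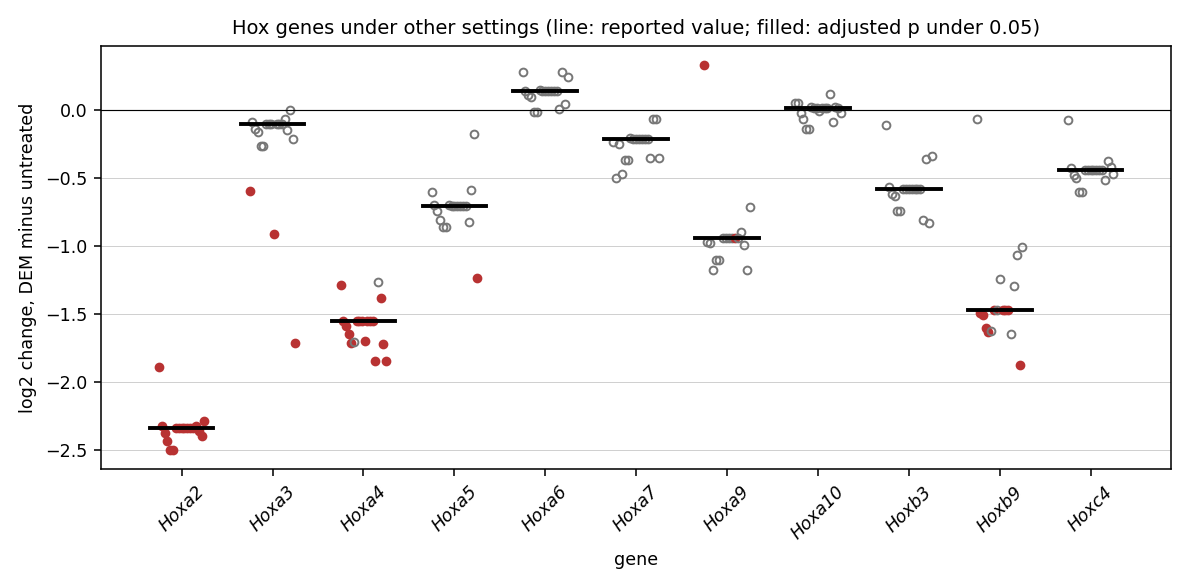
For each Hox gene tested, points give the log2 change (y axis, DEM minus untreated) under each alternative setting, filled where the adjusted p was under 0.05, and the black line is the reported value. All points of Hoxa2 are filled and lie between -2.496 and -1.889, those of Hoxb9 run from -1.88 to -0.07, and 1 filled point of Hoxa9 lies above 0.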

How the data were processed

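RNA of 4 samples was labelled with Cy3 and hybridised to Agilent mouse arrays, 1 sample per array. Per the file headers, the spot intensity values are processed signals written by version 10.7.3.1 of Agilent's Feature Extraction under its GE1_107_Sep09 protocol, with background subtracted and low signals replaced by surrogate values; a spot's mark as well above background used a multiplier of 13. The authors also deposited a log2 table of the same arrays. In it, 99.4% of values equalled the log2 signal less 1 constant for each array to within 0.01, which settles its scale; the medians of its columns are -4.38 and -4.34 for untreated and -4.28 and -4.35 for DEM arrays. It was tested in place of the scanner signals as an alternative.

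There were 62976 spots on an array, 1319 of them controls. Control spots and spots with an outlier mark were left out (130 probes), the 75th percentile was subtracted on the log2 scale, spots of a probe were averaged, and a probe was kept (31771 of 61177) where 2 or more of the 4 arrays marked it well above background. The brightest kept probe over all arrays stood for each gene. Names were updated through the RefSeq gene table of GRCm38.p6 (28077 probes by accession, 4988 by symbol, 1406 by synonym, 6107 kept the file's name, 20678 were NONCODE transcripts); the array grid names mm9, so the table gave names and gene order only.

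The test was two-sided, from lmFit and trended eBayes of limma (version 3.58.1, R 4.3.3), with no covariate and with 2 residual and 4.03 prior degrees of freedom. Tables were read with the data.table package of R, version 1.17.8, and plots drawn in matplotlib 3.10.9. The fit was tested on simulated data. The number of arrays limits the precision. Alternatives were other normalizations, gene names as in the files, a variance model without trend, background corrections, filters, probe choices, a replicate block and leaving out each array. The rule for names covered Hox genes, tested genes inside or beside a cluster, and in each list up to 4 members with the smallest p; most undetected Hox genes are given by count, and marker, Dlx4 and Otx1 names beyond the rule were chosen after their values were seen. The name rule matched 39 Hox genes; 1 of them, left out of the Hox counts, and some list members and probe sequences are not reported here. Members and lists were chosen with earlier results of these data known.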

Additional observations from a re-analysis of the deposited data

How the results depend on the processing

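Of 431 comparisons of a result with its value under another setting, 343 kept direction and side of the threshold (or, for counts, stayed within 1.5 times). The cause of the other differences was not tested. Of Hox genes, 1 rose with normexp and 20 with no filter on dim probes, all 20 well above background on no array; 1 fell with spike-in scaling and 1 to 4 fell when each array was left out in turn. Leaving out each array, where the lone sample left is assumed to vary like the other group, gave 1 to 2 TALE cofactors higher and 1 to 4 lower, 1 to 5 Polycomb genes higher and 1 to 3 lower, 0 to 2 trithorax genes higher, 0 to 2 Cdx and retinoic acid genes higher and 1 to 4 lower, 1 to 3 outside homeobox genes higher and 3 to 15 lower, and 644 to 4488 of all genes higher and 802 to 3814 lower. Spike-in scaling gave 0 TALE cofactors higher and 1 lower, 0 Polycomb, 0 trithorax and 0 Cdx and retinoic acid genes higher, 0 Polycomb and 0 trithorax genes lower, 1 outside homeobox gene lower, and 354 of all genes higher and 859 lower. Polycomb genes higher were 3 with quantile, median, loess or detected-probe percentile scaling, the mean of probes, or eBayes without trend. Trithorax genes higher were 1 with quantile, loess, detected-probe scaling or no trend and 4 with no filter; those lower were 2 with normexp, quantile, loess, detected-probe scaling or no filter. Cdx and retinoic acid genes higher were 2 with normexp, 0 with detected-probe scaling or no trend and 7 with no filter. Without trend 2 TALE cofactors were lower. Outside homeobox genes higher were 7 with normexp, 13 with no filter and 1 among genes above background on all 4 arrays. All genes higher were 6470 with normexp, 2529 with loess and 17297 with no filter. The median change of all genes was 0.16 as reported, 0.00323 with detected-probe scaling, 0.00498 with spike-ins, 0.01 with loess and 0.23 with normexp. Hoxa6 reversed to -0.017 with detected-probe scaling and -0.015 with spike-ins, and Hoxa9 to 0.326 with normexp. Hoxa10 reversed to -0.022 (median scaling), -0.067 (loess), -0.143 (detected-probe scaling), -0.141 (spike-ins), -0.007 (mean of probes), -0.090 to 0.118 when each array was left out (the lowest without the second untreated array) and -0.028 (its other probe, chosen as an alternative after seeing the data, as was every probe on its own). The replicate block gave 3 Hox genes lower and 0 higher, 4473 of all genes higher and 3378 lower; same-numbered arrays deviated together at r = 0.0844 over 2 pairs and the labels do not pair them. With 2 arrays a group, low signal leaves 26 Hox genes well above background on no array.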
